A study of Apis mellifera ligustica with 11 samples.

Results

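The Yellow protein family was followed through brain libraries of the Italian honeybee, Apis mellifera ligustica. Its 11 genes are the rows of the expression table whose description contains the word yellow, out of 9974 rows in all, with the 9 genes whose symbol begins with Mrjp left out. They are yellow-f (Y-f), yellow-x1 (LOC724293), a gene described as protein yellow-like (LOC113218568), yellow-b (LOC413264), yellow-x2 (LOC727110), yellow-e3 (Y-e3), yellow-h (Y-h), yellow-y (Y-y), yellow-e (LOC726274), yellow-g (LOC413379) and yellow-g2 (LOC413380). Gene numbers of all 11 were found in RefSeq's table for Amel_HAv3.1.

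Yellow proteins are secreted proteins found mainly in insects. The founding gene, yellow of Drosophila, is needed for black pigment in the cuticle and affects male courtship. Yellow-f of Drosophila speeds the conversion of dopachrome, a step on the way from dopamine and dopa to melanin. In the honeybee line, copies of a Yellow gene gave rise to the major royal jelly proteins (Mrjp), which nurse workers secrete from the hypopharyngeal gland of the head as larval food.

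The libraries were made from brain RNA of bees sampled around treatment with fluvalinate, a pyrethroid used in hives against mites, with treatment repeated every 7 days. There were 3 libraries from 1 day before exposure, 2 from 10 days after it (replicates 2 and 3), 3 from 20 days and 3 from 30 days. The libraries from before exposure are the only reference analysed here, so exposure and elapsed time cannot be told apart, and the age of the bees is not given in the sources used here. Per the labels the royal jelly glands and the pigments were taken off the brains. Nothing in the labels assigns the libraries of a time to different colonies. The p-values therefore reflect the spread among the libraries at hand, which may be technical.

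Values are FPKM, fragment numbers divided by transcript length and library size, which allows levels to be compared between genes. Summed FPKM ran from 264416 to 468358 per library. Low values lay partly on shared steps, from which the relative depth of the libraries was estimated to span 1.83-fold, with before-exposure replicate 2 the shallowest and day 30 replicate 3 the deepest. Absolute depth is unknown. The neuronal marker list, which includes the sodium channel gene Para and the synaptic gene brp, summed to between 309 and 637 FPKM in every library, and none of its 12 genes was at 0 in any. Royal jelly transcripts were nevertheless abundant: Mrjp1 to Mrjp7 made up 1.76%, 4.42% and 2.39% of all FPKM before exposure, 27.0% and 23.9% on day 10, 13.2%, 23.9% and 16.9% on day 20, and 1.51%, 10.4% and 3.16% on day 30. Their part in the results below was not tested beyond the values given beside each result.

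Of the 11 Yellow genes, yellow-f was by far the most abundant, with a mean of 945 ± 163 FPKM (SD, n = 11 libraries) that ranked 24 among all rows of the table. It made up 90.5% to 96.4% of the summed Yellow FPKM in a library. Next came yellow-x1 with a mean of 20.5 FPKM, below yellow-f in all 11 libraries by a ratio of means of 46.1. Below it lay yellow-like (7.70 FPKM), yellow-b (6.74), yellow-x2 (6.12), yellow-e3 (3.67), yellow-h (3.08) and yellow-y (2.83). Within these 6 the ranges of neighbours in the order overlapped. Yellow-b exceeded yellow-x2 in 7 of 11 libraries, yellow-e3 exceeded yellow-h in 6 and yellow-h exceeded yellow-y in 5, so these neighbours were not separated beyond their spread. Yellow-e (0.22 FPKM), yellow-g (0.20) and yellow-g2 (0.07) stood apart at the bottom, with yellow-y above yellow-e in all 11 libraries by a ratio of means of 12.9.

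**Figure D1:**
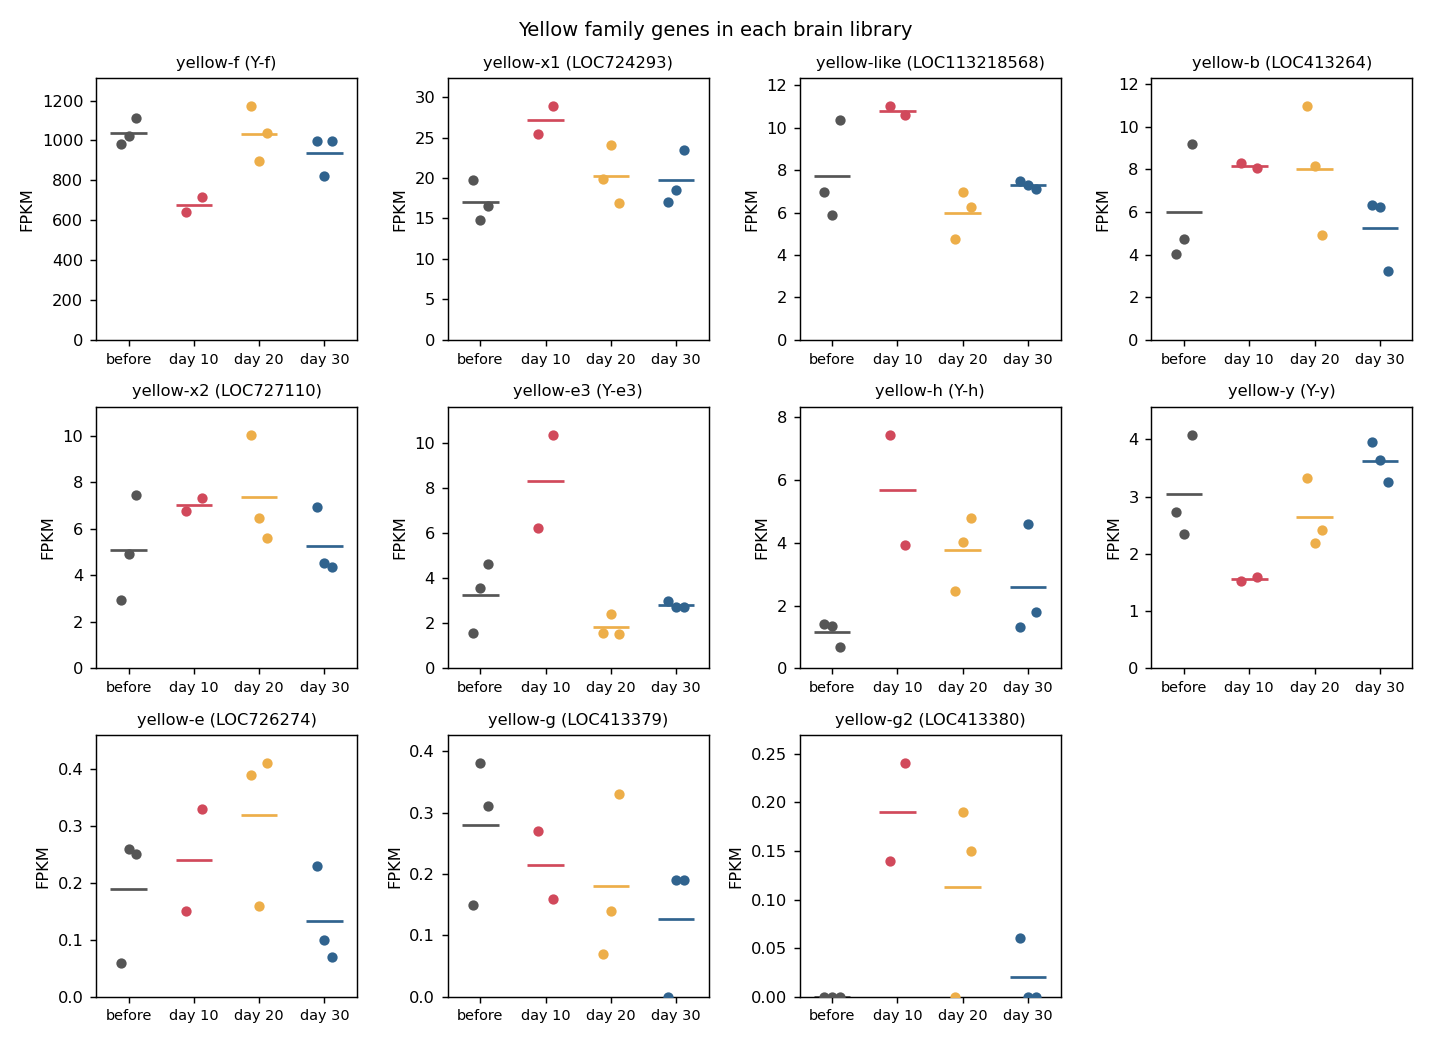
FPKM of each Yellow gene (vertical axes, each from 0) in every library, grouped by sampling time; points are libraries and bars group means (n = 3, 2, 3 and 3). At day 10 both libraries lie below all 3 before-exposure libraries for yellow-f and yellow-y and above them for yellow-h, yellow-e3, yellow-x1 and yellow-like, as well as for yellow-g2, which is at 0 in all libraries before exposure.

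At day 10, 3 Yellow genes were higher than before exposure (yellow-h, yellow-e3 and yellow-x1) and 1 was lower (yellow-f). Of the 11, 8 averaged 1 FPKM or more and entered the test, together with all other genes above that level. The test was limma on log2(FPKM + 1), with an adjusted p under 0.05 as the call. Of all 7830 genes tested 19.2% were called at day 10, with 2.22% higher and 16.9% lower. In 6 of the 8 Yellow genes the day 10 libraries did not overlap those from before exposure, against 48.1% of all genes. Of these 6, 4 lay higher at day 10 (9.74% of all genes) and 2 lower (38.3%). Leaving out a day 10 library leaves that time with 1 library, which is then assumed to vary like the other groups. Without replicate 2 such a fit called 2 of 7828 genes at day 10, and without replicate 3 it called 1617 of 7824, so a call lost without replicate 2 was lost with nearly all others. Of 18 alternative settings, 16 kept the call of yellow-h, 12 that of yellow-e3, 11 that of yellow-x1 and 7 that of yellow-f. The median gene had a log2 difference of -0.18 at day 10, which became 0.02 after median-of-ratios scaling. For this reason each log2 change below has the median gene's change subtracted, while p-values test the deposited scale unless the scaling is named.

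Yellow-f, the gene related to the dopachrome-converting enzyme of Drosophila, stood at 980.02, 1023 and 1115 FPKM before exposure. Day 10 replicates 2 and 3 held 639.51 and 715 FPKM, less than every other library. Day 20 had 1171, 898 and 1036 FPKM and day 30 had 996, 821 and 999 FPKM, overlapping the levels before exposure at both times. Its group mean was 1039 ± 68.7 FPKM (SD, n = 3) before exposure and 677 ± 53.6 FPKM (SD, n = 2) at day 10, 1.53-fold lower, a log2 change of -0.44 ± 0.19 (SE) relative to the median gene with adjusted p = 0.0403. This call was lost with median-of-ratios scaling (adjusted p = 0.146), where the log2 difference was -0.39. It was also lost without before-exposure replicate 1 (adjusted p = 0.0541), 2 (0.0847) or 3 (0.0970), without day 10 replicate 2 (0.321, in the fit with 2 calls over all genes) or 3 (0.0731), without day 20 replicate 3 (0.0668) and without day 30 replicate 3 (0.0589). A replicate block (0.0544) and no filter on low values (0.0654) ended it as well. So did the royal jelly level as a covariate (0.686), in a fit that called 0 of the 7830 genes tested at day 10. After rescaling without royal jelly genes, chosen after seeing the data, the log2 difference was -0.84 (adjusted p = 0.0115), against -0.62 as deposited. The median gene was at -0.40 after that rescaling and at -0.18 as deposited. That fit called 2303 of 8642 genes at day 10, 132 higher and 2171 lower.

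Most genes of the neuronal list were also lower in the same libraries, and their part in the level of yellow-f was not tested. The 12 genes of the neuronal list summed to 573 to 637 FPKM before exposure and to 309 to 389 FPKM at day 10. Of the 11 tested 8 were called lower, beside 16.9% of all genes. Synaptobrevin-1 (LOC725310) and the synaptobrevin homolog YKT6 (LOC552555) went the other way. Relative to the median gene they differed by 0.37 ± 0.13 and 0.39 ± 0.17 (adjusted p = 0.338 and 0.418). In bulk tissue, fewer cells of a type and less RNA per cell cannot be told apart. Over the 11 libraries the 2 genes with a described name whose pattern was most like that of yellow-f were LOC411976, sodium/potassium/calcium exchanger 4 (Pearson r = 0.97, Spearman rho = 0.96), and LOC727593, a UDP-glucuronosyltransferase (r = 0.97, rho = 0.92). All libraries of such a comparison share the same table and scaling, so the r is a description.

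Yellow-h and yellow-e3 sit on either side of the royal jelly protein genes. In the RefSeq gene order of Amel_HAv3.1 a single run of 15 protein-coding genes begins with yellow-g, yellow-g2, yellow-e and yellow-e3. It continues with Mrjp3, Mrjp1, Mrjp4, Mrjp6, Mrjp5, LOC102654393 (described as major royal jelly protein 2-like), Mrjp2, Mrjp7, Mrjp8 and Mrjp9, and it ends with yellow-h. The authors' build is not given in the sources used here, so only the order is used.

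**Figure D2:**
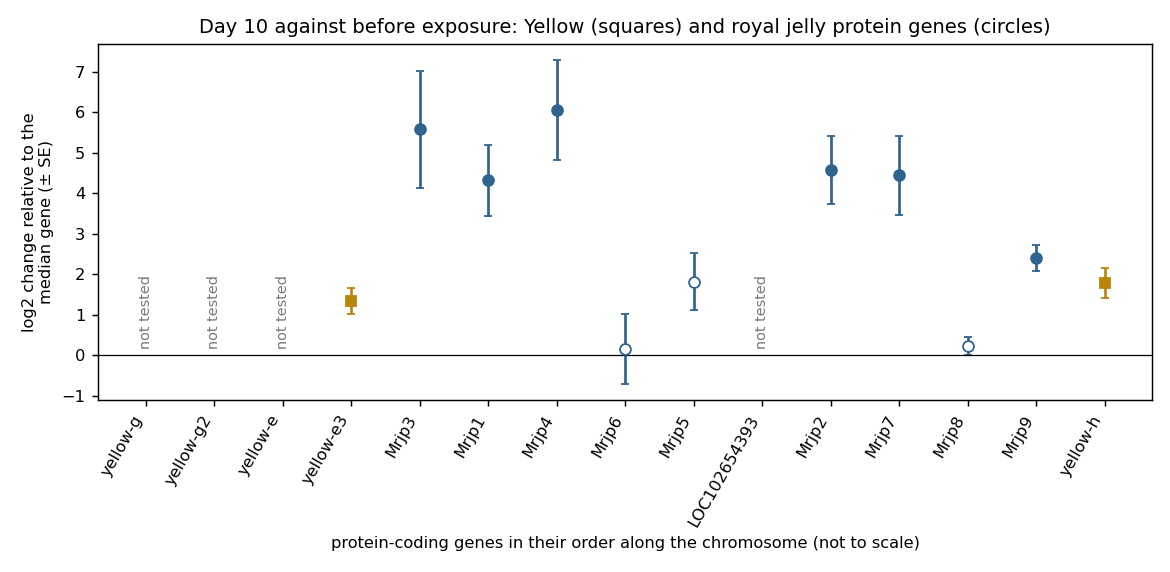
Log2 change at day 10 against before exposure relative to the median gene (vertical axis, ± SE; 2 against 3 libraries) for the run of 15 genes in chromosomal order (horizontal axis, not to scale). Squares are Yellow genes, circles royal jelly protein genes and filled symbols adjusted p under 0.05; yellow-e3 (1.34) and yellow-h (1.79) at the edges are filled, while Mrjp6, Mrjp5 and Mrjp8 inside the run are open and 4 genes under 1 FPKM were not tested.

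Yellow-h was at 1.41, 1.34 and 0.68 FPKM before exposure. Day 10 replicate 2 had 7.44 FPKM and replicate 3 had 3.94 FPKM. Levels of 2.47, 4.03 and 4.78 FPKM followed at day 20, and 1.33, 4.61 and 1.81 FPKM at day 30. All 5 libraries of days 10 and 20 lay above those from before exposure, while replicates 1 and 3 of day 30 lay near them and replicate 2 above. The mean was 1.14 ± 0.40 FPKM (SD, n = 3) before exposure and 5.69 ± 2.48 FPKM (SD, n = 2) at day 10. The rise was a log2 change of 1.79 ± 0.37 (SE) relative to the median gene with adjusted p = 0.0135. With median-of-ratios scaling the adjusted p was 0.0307. The call held without any single library other than day 10 replicate 2, without which 2 genes were called over all and the adjusted p of yellow-h was 0.221, and the log2 change as deposited was 1.22 against 1.61 with it. At day 20 the groups did not overlap, as in 20.5% of all genes, and the difference of 1.25 ± 0.33 relative to the median gene did not pass (adjusted p = 0.337), while at day 30 the log2 difference was 0.62 ± 0.33 (adjusted p = 0.710).

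The described genes most like yellow-h were products of the hypopharyngeal gland. Over the 11 libraries the 2 described genes most like it were LOC406081, glucose oxidase (r = 0.98, rho = 0.95), and LOC406093, apisimin (r = 0.98, rho = 0.92), the first found in honey and the second in royal jelly. Taken as deviations from the mean of each sampling time the r was 0.96 with both. Glucose oxidase averaged 3240.0 FPKM and apisimin 25600.0 FPKM over the libraries, against 3.08 FPKM for yellow-h. The summed Mrjp1 to Mrjp7 was 4662, 12863 and 6994 FPKM before exposure, 126259.7 and 94231 FPKM at day 10, 44155, 85199 and 61935 FPKM at day 20, and 4234, 36823 and 9049 FPKM at day 30. Yellow-h was highest in the library with the highest royal jelly sum at 2 of the 4 sampling times and lowest in the one with the lowest sum at 3 of 4. This was not particular to yellow-h: the same tallies were 3 and 4 for yellow-g, a gene near 0, and 2 and 2 for yellow-like. The remaining Yellow genes had 0 or 1 and 0 to 2. With the royal jelly level as a covariate the log2 change of yellow-h at day 10, as deposited, went from 1.61 to 0.44 (adjusted p = 0.753). That fit called 0 of the 7830 genes tested at day 10. Its covariate was itself apart between the groups, at 2.28 and 1.91 (log2) at day 10 and -2.40 to -0.59 before exposure.

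Yellow-e3 lies at the other edge of the run. It was at 1.57, 3.57 and 4.65 FPKM before exposure, and rose to 6.24 and 10.4 FPKM in the day 10 libraries. Day 20 had 1.55, 2.43 and 1.52 FPKM and day 30 had 3.00, 2.72 and 2.75 FPKM. Only the day 10 libraries lay above all those from before exposure, and the day 20 libraries overlapped the low end. Its log2 change at day 10 was 1.34 ± 0.31 (SE) relative to the median gene, between means of 3.26 ± 1.56 FPKM (SD, n = 3) and 8.31 ± 2.93 FPKM (SD, n = 2), with adjusted p = 0.0229 and 0.0247 after median-of-ratios scaling. Without before-exposure replicate 1 the adjusted p was 0.0572, without day 10 replicate 3 it was 0.149 and without day 10 replicate 2, where 2 genes were called over all, it was 0.122. It was 0.0508 with a replicate block and 0.0502 after rescaling without royal jelly genes, where the median gene was at -0.40.

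At day 30 yellow-e3 was lower than at day 10, by -1.46 ± 0.31 relative to the median gene (adjusted p = 0.0353). Of all genes 10.8% were called between these days, 9.41% higher and 1.37% lower at day 30. That call was lost without day 10 replicate 2 (adjusted p = 0.325, with 0 of all genes called and 831 at an unadjusted p of 0.05) or 3 (0.129), without day 20 replicate 3 (0.0538) and without day 30 replicate 1 (0.0818) or 3 (0.109, also with 0 of all genes called and 1827 at an unadjusted p of 0.05). Between days 20 and 10 the difference of -1.78 ± 0.31 did not pass as deposited (adjusted p = 0.0562), and it passed with median-of-ratios scaling (0.0336), without before-exposure replicate 1 (0.0337) and without day 30 replicate 2 (0.0354). Here 0.102% of all genes were called. In limma's test for any difference among the 4 sampling times, where 6.74% of all genes were called, yellow-e3 was the 1 Yellow gene called (adjusted p = 0.0376), and yellow-h had adjusted p = 0.0577. The call of yellow-e3 over all times held under 4 of 18 alternatives and the call between days 30 and 10 under 9 of 18. Without day 30 replicate 2, yellow-h was called over all times (adjusted p = 0.0243) and as lower at day 30 than at day 10 (0.0237), and without day 10 replicate 3 it was called over all times (0.0485).

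At day 20 yellow-h lay above its range before exposure and yellow-e3 did not, and the difference between them was not tested. The royal jelly sum at day 20 was 44155 to 85199 FPKM, above every library from before exposure, and yellow-h was above its level before exposure in the same 3 libraries. Yellow-e3 in those libraries was at 1.52 to 2.43 FPKM, within or just under its range before exposure of 1.57 to 4.65 FPKM. The described genes most like yellow-e3 were Tg, a transglutaminase (r = 0.90, rho = 0.75), and LOC724873, Rab-7a (r = 0.89, rho = 0.92), neither of them on the gland lists. With the royal jelly level as a covariate the log2 change of yellow-e3 at day 10, as deposited, was 1.00 against 1.16 without it, with adjusted p = 0.540. At day 10 against before exposure that fit called 0 of the 7830 genes tested, with 782 at an unadjusted p of 0.05, and in the other comparisons it called 0 to 8 genes.

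**Figure D3:**
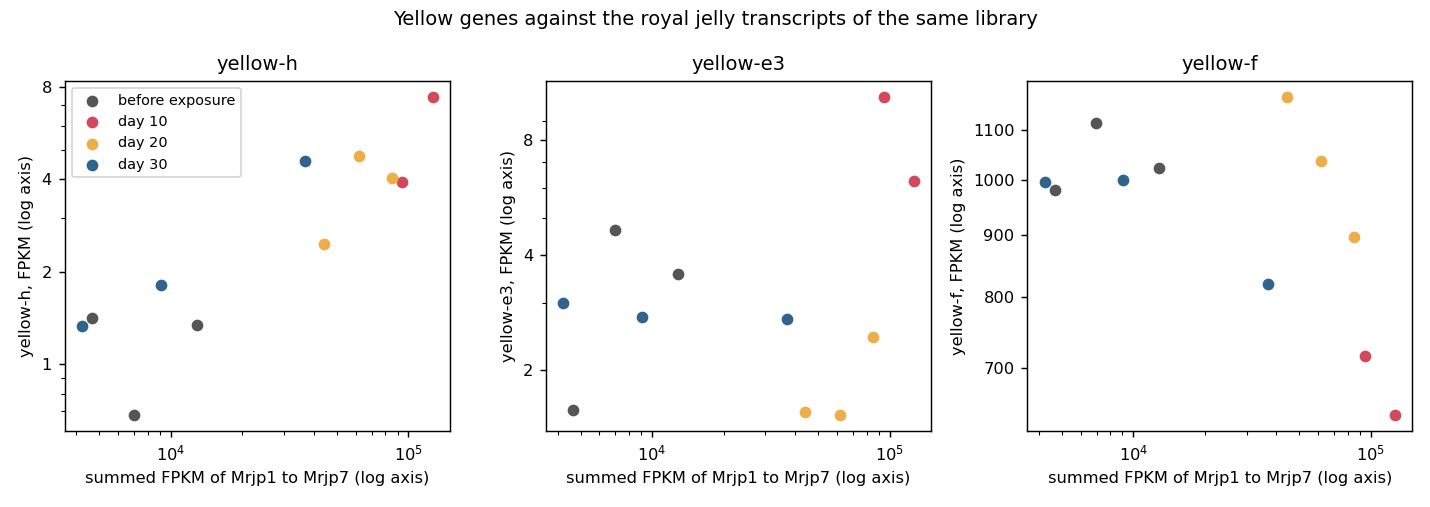
FPKM of yellow-h, yellow-e3 and yellow-f (vertical log axes) against the summed FPKM of Mrjp1 to Mrjp7 (horizontal log axes) in the same library, with 1 point per library coloured by sampling time. Yellow-h lies at 1.81 FPKM or less in the 5 libraries with sums up to 12863 FPKM and at 2.47 FPKM or more in the other 6, whereas yellow-e3 at day 20 is low at sums of 44155 to 85199 FPKM.

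Among the royal jelly genes between them, 6 of 9 were called higher at day 10, beside 2.22% of all genes. Mrjp9, next to yellow-h, went from a mean of 4.33 to 24.2 FPKM (a relative log2 difference of 2.41 ± 0.32, adjusted p = 0.00568), and Mrjp3, next to yellow-e3, from 95.1 to 2761 FPKM (5.58 ± 1.44, adjusted p = 0.0225). Mrjp8 and Mrjp6, also inside the run, had differences of 0.23 ± 0.21 and 0.16 ± 0.86 (adjusted p = 0.902 and 0.990). The sources used here do not say how reads were divided between related genes.

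Outside the run, yellow-x1 was the third Yellow gene called higher at day 10. It was at 19.8, 14.8 and 16.5 FPKM before exposure, 25.5 and 28.8 FPKM at day 10, 19.9, 24.1 and 16.9 FPKM at day 20 and 17.0, 18.6 and 23.5 FPKM at day 30. Both day 10 libraries lay above all other libraries of the series. The log2 change was 0.83 ± 0.18 (SE) relative to the median gene, with adjusted p = 0.0286 and 0.0336 after median-of-ratios scaling. Leaving out before-exposure replicate 2 (adjusted p = 0.0820) or 3 (0.0724), or day 10 replicate 2 (0.164, with 2 genes called over all) or 3 (0.117), ended the call, as did a replicate block (0.0596) and rescaling without royal jelly genes (0.177). In the rescaled values the log2 change was 0.45 with the median gene at -0.40, against 0.65 and -0.18 as deposited. With the royal jelly level as a covariate the log2 change as deposited was 0.74 against 0.65 without it (adjusted p = 0.472). The described genes most like yellow-x1 were LOC725202, a chymotrypsin inhibitor (r = 0.89, rho = 0.92), and LOC113218576, lysozyme-like (r = 0.77, rho = 0.75).

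Yellow-y had a lower level at day 10 than in any other library and did not pass the test of the deposited values against before exposure. Its values were 2.73, 2.35 and 4.08 FPKM before exposure, 1.53 and 1.6 FPKM at day 10, 3.32, 2.19 and 2.42 FPKM at day 20 and 3.96, 3.65 and 3.26 FPKM at day 30. With the median gene's change subtracted, the log2 difference at day 10 was -0.46 ± 0.22 (adjusted p = 0.0645). It passed in limma without a mean-variance trend (adjusted p = 0.0448) and after rescaling without royal jelly genes (adjusted p = 0.0238). In the rescaled values the log2 difference was -1.01 against -0.64 as deposited, with the median gene at -0.40 against -0.18. From day 10 to day 30 yellow-y rose, relative to the median gene, by 0.63 ± 0.22 (adjusted p = 0.0389), and with median-of-ratios scaling this did not pass (adjusted p = 0.112). The call was also lost without day 10 replicate 2 (adjusted p = 0.406) or 3 (0.0680), day 20 replicate 2 (0.0536) or 3 (0.0583), or day 30 replicate 1 (0.0900) or 3 (0.106), where the fits without day 10 replicate 2 and day 30 replicate 3 are those with 0 of all genes called, and with a replicate block (0.0687) and with the royal jelly level as a covariate (0.739). It held under 9 of 18 alternatives. Most like yellow-y among described genes were LOC726827, a coiled-coil domain protein (r = 0.95, rho = 0.85), and LOC410055, a probable tRNA guanylyltransferase (r = 0.94, rho = 0.95).

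The gene described as yellow-like lies next to yellow-b in the RefSeq order, and over the 11 libraries the pair had r = 0.23 (rho = 0.21). Yellow-like was at 6.98, 5.89 and 10.4 FPKM before exposure, 11 and 10.6 FPKM at day 10, 4.75, 6.96 and 6.25 FPKM at day 20 and 7.49, 7.28 and 7.09 FPKM at day 30. Its day 10 libraries were the highest, just above before-exposure replicate 3, with a difference of 0.64 ± 0.22 relative to the median gene that did not pass (adjusted p = 0.151). Yellow-b was at 4.03, 4.73 and 9.22 FPKM before exposure, 8.29 and 8.05 FPKM at day 10, 10.96, 8.16 and 4.93 FPKM at day 20 and 6.32, 6.26 and 3.23 FPKM at day 30, so every exposed group overlapped the reference. The ratio of yellow-b to yellow-like ranged from 0.456 (day 30 replicate 3) to 2.31 (day 20 replicate 1). Tg was also the described gene most like yellow-like (r = 0.88, rho = 0.71), followed by LOC724629, the ribosomal protein S28 (r = 0.86, rho = 0.87). Among Yellow genes yellow-e3 was most like yellow-like (r = 0.83, rho = 0.76), at rank 8 of 7829 genes. As deviations from the mean of each sampling time their r was 0.44.

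The Yellow gene most like yellow-b was yellow-x2, which is on another chromosome in the RefSeq table. Yellow-x2 was at 2.95, 4.90 and 7.46 FPKM before exposure, 6.76 and 7.31 FPKM at day 10, 10.04, 6.46 and 5.60 FPKM at day 20 and 6.96, 4.51 and 4.37 FPKM at day 30. Both genes had their highest value in day 20 replicate 1, and within the libraries from before exposure both were highest in replicate 3 and lowest in replicate 1. The ratio of yellow-b to yellow-x2 stayed between 0.739 and 1.39. Their Pearson r over the 11 libraries was 0.86 (rho = 0.89), which placed yellow-x2 at rank 5 of 7829 genes by likeness to yellow-b. As deviations from the mean of each sampling time the r was 0.83. Neither passed at day 10, with differences of 0.64 ± 0.35 for yellow-b (adjusted p = 0.397) and 0.64 ± 0.31 for yellow-x2 (adjusted p = 0.328) relative to the median gene. The described genes most like yellow-b were LOC551863, a putative inorganic phosphate cotransporter (r = 0.91, rho = 0.94), and LOC100576555, a cytochrome b561 domain protein (r = 0.87, rho = 0.92). Those most like yellow-x2 were LOC725572, ribonuclease kappa-B (r = 0.89, rho = 0.82), and LOC102656685, the mitochondrial ribosomal protein L42 (r = 0.88, rho = 0.88). The interval of yellow-x2 overlaps that of LOC410353, an Elav-like RNA-binding protein gene. The mean of LOC410353 fell from 27.6 to 12.8 FPKM at day 10 (adjusted p = 0.00594). Reads of the pair could be shared if exons overlap and strand was not used, and overlap of exons was not examined.

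**Figure D4:**
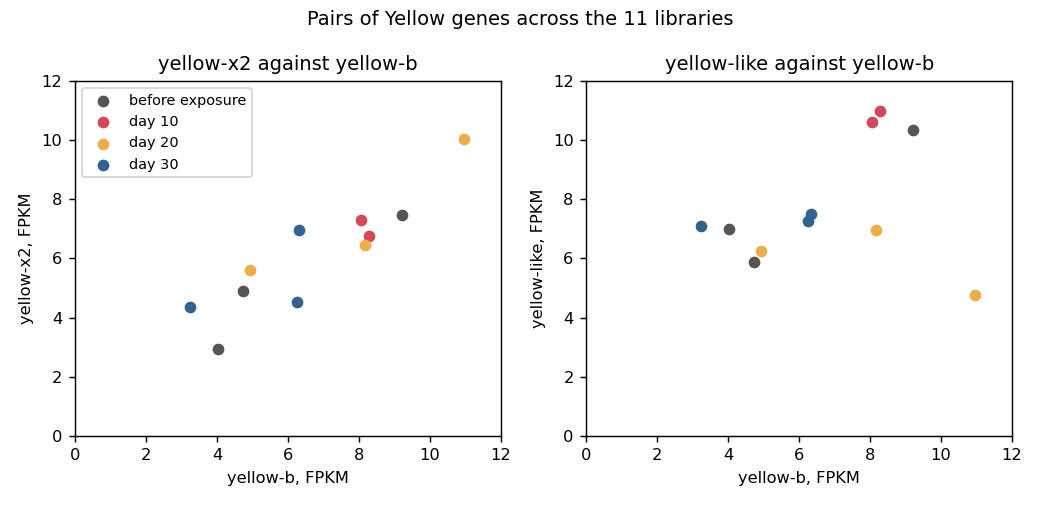
FPKM of yellow-x2 (left) and yellow-like (right) against FPKM of yellow-b in the same library, with 1 point per library coloured by sampling time and both axes from 0. The ratio of yellow-b to yellow-x2 stays between 0.739 and 1.39, and that to the chromosomal neighbour yellow-like between 0.456 and 2.31.

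Yellow-e, yellow-g and yellow-g2, the other members of the chromosomal run, were close to the limit of the table. In Drosophila the yellow-g genes act in the eggshell, and in the silkworm a yellow-e mutation alters larval colour. Yellow-e lay between 0.06 and 0.41 FPKM and yellow-g between 0 and 0.38 FPKM, with overlapping groups at every time. Yellow-g2 was listed at 0 in 6 of the 11 libraries, including all 3 from before exposure, while day 10 replicate 2 had 0.14 FPKM and replicate 3 had 0.24 FPKM. By the estimate from low values, the depths relative to the shallowest library were 1.15, 1.0 and 1.33 before exposure and 1.31 and 1.78 at day 10. Yellow-g2 was also at 0 in day 20 replicate 1 (1.69) and in day 30 replicate 3, the deepest library (1.83). In a fit without a filter on low values yellow-g2 had adjusted p = 0.0567 at day 10, and yellow-g and yellow-e had 0.745 and 0.794. A level of 0 in this table does not show that a transcript was absent.

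At days 20 and 30 limma called no Yellow gene against before exposure, and 0% of all genes. Without adjustment, a p under 0.05 was reached by 774 genes at day 20, of which yellow-h was the 1 Yellow gene, and 562 at day 30, none of them Yellow. Differences at day 20 lay between -0.42 ± 0.28 (yellow-e3) and 1.25 ± 0.33 (yellow-h) relative to the median gene. At day 30 log2 differences relative to the median gene lay between -0.18 ± 0.17 (yellow-f) and 0.62 ± 0.33 (yellow-h). At day 30 no Yellow gene's libraries were all apart from those before exposure, as 10.4% of all genes' were. Relative to the median gene, the 8 Yellow genes had a median of 0.64 at day 10. That median was 0.22 for day 20 and -0.01 for day 30. The 3 comparisons share the libraries from before exposure. Between days 30 and 20 none of the 8 was called either, and 0% of all genes were, with 503 at an unadjusted p of 0.05 and no Yellow gene among them.

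**Figure D5:**
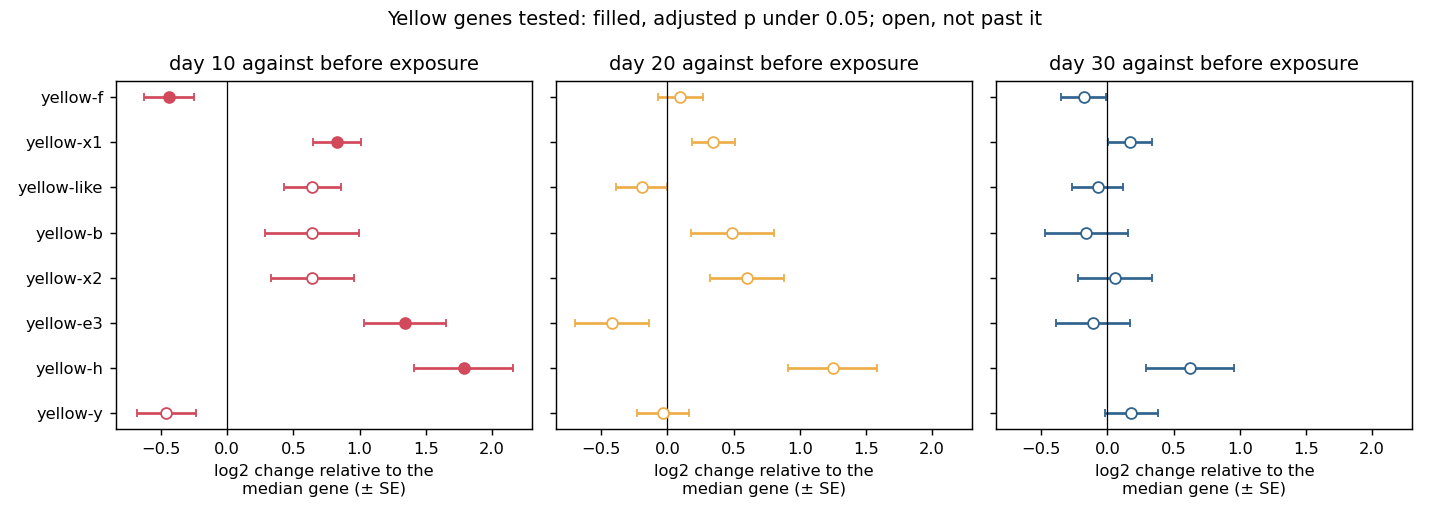
Log2 change relative to the median gene (horizontal axis, ± SE) of the 8 tested Yellow genes at day 10 (2 libraries), day 20 (3) and day 30 (3) against the 3 libraries from before exposure; filled points have adjusted p under 0.05. Filled points occur at day 10 in yellow-f, yellow-x1, yellow-e3 and yellow-h, and at day 30 every gene other than yellow-h lies between -0.18 and 0.18.

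Of 14 other genes of melanin and catecholamine chemistry, all tested, 2 were called higher and 3 lower at day 10, beside 2.22% and 16.9% of all genes. Their median was 0.01 relative to the median gene, beside 0.64 for the Yellow genes. The count of lower calls was near the share over all genes. Of the higher genes, LOC552811, laccase-5, a phenol oxidase, went from 13.4 ± 2.24 to 90.3 ± 60.3 FPKM (adjusted p = 0.00762). The other, LOC409204, a protease described as phenoloxidase-activating factor 2, went from 0.74 ± 0.25 to 7.72 ± 0.64 FPKM (adjusted p = 0.0259). The lower ones were LOC410638, an aromatic-L-amino-acid decarboxylase, the enzyme type that makes dopamine from dopa (52.5 ± 8.51 to 30.6 ± 3.64 FPKM, adjusted p = 0.0185), and a pair of dopamine N-acetyltransferases, which inactivate dopamine, LOC409361 (159 ± 13.7 to 92.4 ± 18.5 FPKM, adjusted p = 0.00762) and LOC411294 (30.0 ± 1.71 to 20.4 ± 2.42 FPKM, adjusted p = 0.0201).

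The remaining 9 pigment and catecholamine genes did not pass at day 10. TyHyd, tyrosine hydroxylase, the first step to dopa, had a difference relative to the median gene of 0.03 ± 0.17 (adjusted p = 0.585), and PPO, the prophenoloxidase subunit, one of 0.14 ± 0.30 (adjusted p = 0.952). Protein henna (LOC408622), dihydropteridine reductase (LOC409160), the other decarboxylase (LOC410948), laccase 2 (LOC410365), laccase-1 (LOC724890), a further laccase (LOC725500) and the other phenoloxidase-activating factor (LOC100576326) had adjusted p between 0.0963 and 0.877. None of the 14 was called at day 20 or day 30 against before exposure. From day 10 to day 30, LOC410638 rose by 0.45 ± 0.19 relative to the median gene, and laccase-5 (-2.29 ± 0.48), LOC409204 (-2.51 ± 0.64) and LOC100576326 (-1.14 ± 0.25) fell, with adjusted p between 0.0313 and 0.0456.

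At day 10 the summed gland, neuronal, fat body and glial markers lay apart from their ranges before exposure. Of all single genes tested, 48.1% did so. Sums of cuticle, photoreceptor and haemocyte markers overlapped. The 9 Mrjp genes summed to 4671 to 12874 FPKM before exposure and to 94259 to 126295 FPKM at day 10, and glucose oxidase, apisimin and Hbg3 summed to 7707 to 16722 FPKM before exposure and to 57999 to 100339 FPKM at day 10, with 2 of 3 called higher. The 4 fat body genes, led by vitellogenin, summed to 38.6 to 46.5 FPKM before exposure and to 75.8 to 84.5 FPKM at day 10, with none called and Hex70c at 0 in 3 libraries. Genes with a cuticle word in their description, taken to mark epidermis, summed to 189 to 280 FPKM before exposure and to 191 to 279 FPKM at day 10. Of these, 2 of 19 tested were called lower. The word also matched LOC724997, protein naked cuticle homolog 2-like (mean 3.08 FPKM), which was not called. The 16 photoreceptor and eye pigment genes ran from 409 to 755 FPKM before exposure, 702 to 802 FPKM at day 10, 763 to 1995 FPKM at day 20 and 1291 to 1307 FPKM at day 30, with 1 of 14 tested called higher and 1 lower at day 10. Haemocyte and glial lists summed to 69.0 to 149 and 198 to 236 FPKM before exposure and to 134 to 142 and 148 to 171 FPKM at day 10. Of these, 1 of 5 haemocyte genes was called higher and 2 of 6 glial genes lower. The haemocyte gene called is LOC409204, already counted among the pigment genes, and LOC100576326 and PPO are also on both lists. In the glial list draper (0.06 ± 0.15) and LOC551759 (0.20 ± 0.29) lay above the median gene and were not called. Beside the counts of all these lists, 2.22% of all genes were called higher at day 10 and 16.9% lower. The part of these tissues in the levels of the Yellow genes was not tested.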

How the data were processed

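The deposited table holds FPKM per gene and library, rounded to 2 decimals, with the unit given per the file headers. Tools listed, without roles, in the submitters' processing notes are StringTie, HISAT2 2.1.0 and fastp 0.18.0. The sources used here give no genome build, annotation or use of strand. Of 12 FPKM columns 11 were used, and 1 was not used here. Equal nonzero values made up at most 1.41% of genes in any 2 libraries. Relative depth was estimated from ratios of low values between libraries and checked on simulated reads. Of 30 starts of that search only 3 reached the best score, so the estimate is rough and enters no test.

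limma 3.58.1 (R 4.3.3) was fitted to log2(FPKM + 1) of 7830 genes averaging 1 FPKM or more, as group means of all 11 libraries with a mean-variance trend and 7 residual degrees of freedom. Benjamini-Hochberg adjustment ran over all genes within a comparison, with calls under 0.05. The log2 scale with a pseudocount of 1 understates changes of low genes. The test was checked on simulated data.

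The members and gene lists were chosen with earlier results of these data known. Every Yellow gene is named, as are all measured pigment and catecholamine genes and, for each tested Yellow gene, the 2 described genes with the highest Pearson r. Alternatives were another pseudocount, no filter, median-of-ratios scaling, no trend, a replicate block, the royal jelly level as covariate, leaving out each library and, added after seeing the data, rescaling without royal jelly genes. Protein and promoter sequences were not used here.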

Additional observations from a re-analysis of the deposited data

Results flagged for a closer look

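Between day 10 and day 30 of exposure, 2 Yellow genes differed by a direct test of the days against each other, where 10.8% of all genes were called, 9.41% higher at day 30 and 1.37% lower. Yellow-e3 had a log2 change of -1.25 as deposited (adjusted p = 0.0353), lower in 3 of 3 day 30 libraries than in both day 10 libraries, and yellow-y one of 0.85 (adjusted p = 0.0389), higher in 3 of 3. No group held 4 or more libraries, so single libraries were not examined for standing apart within a group.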

How the results depend on the processing

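Of 864 values of single Yellow genes in the 6 comparisons of 2 times under alternatives, 791 kept their direction and their side of the threshold, 44 lost a call, 6 gained one and 23 changed sign, 0 of them called. In the test over all 4 times, not among these values, the call of yellow-e3 held under 4 of 18 alternatives and yellow-h gained one under 2. For the number of Yellow genes called, the cause of each move was not tested. The main setting called 844 of 7830 genes between days 30 and 10, 8 between days 20 and 10 and 528 over all times. Without a filter on low values 1 Yellow gene was called between days 30 and 10 and 0 over all 4 times. All genes called there numbered 501 and 171 of 9781. Rescaling without royal jelly genes, chosen after seeing the data, gave the same Yellow counts of 1 and 0, beside 695 and 511 of 8642 genes. Median-of-ratios scaling gave 1 between days 20 and 10 and 1 between days 30 and 10, beside 32 and 60 of 7820 genes. Dropping the trend gave 0 over all times, beside 27 of 7830 genes. With the royal jelly level as covariate 0 Yellow genes were called at day 10, between days 30 and 10 and over all times. Of all 7830 genes that fit called 0, 7 and 8 there. Leaving out 1 library gave 0 to 4 at day 10 against before exposure, 0 to 1 between days 20 and 10, 0 to 3 between days 30 and 10 and 0 to 2 over all times. Counts over all genes also ranged widely in the first 3 of these, from 2 to 1697, from 0 to 549 and from 0 to 1247.

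Whether replicate numbers pair the samples was not settled. Over 15 same-numbered pairs the correlation of deviations ran from -0.24 to 0.31, with 3 over 0.1. Over 30 pairs with different numbers it ran from -0.31 to 0.24, with 10 over 0.1. Deviations from the mean of so few libraries depend on each other, and those of the day 10 libraries mirror each other. These correlations therefore can neither show nor exclude pairing. With the replicate block 1 Yellow gene (yellow-h) was called at day 10, 0 between days 30 and 10 and 0 over all times. Of all 7830 genes the block fit called 1220, 414 and 334 there.

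Log2 changes that turned sign were, at day 20 against before exposure, 0.12 for yellow-f with median-of-ratios scaling, and 0.18 for yellow-f and 0.024 for yellow-y with the covariate. Between days 20 and 10, yellow-x2 had -0.062 with that scaling, -0.017 with the replicate block and -0.079 with the covariate, and yellow-b 0.052 rescaled without royal jelly genes. Yellow-h between days 30 and 20 had 0.14 with the covariate. Leaving out 1 library gave -0.27 to 0.031 for yellow-y and -0.11 to 0.085 for yellow-f at day 20 against before exposure. At day 30 against before exposure it gave -0.20 to 0.16 for yellow-like, -0.33 to 0.18 for yellow-b, -0.41 to 0.16 for yellow-e3 and -0.19 to 0.36 for yellow-x2. It gave -0.32 to 0.19 for yellow-b and -0.19 to 0.18 for yellow-x2 between days 20 and 10, and -0.17 to 0.087 for yellow-x1 between days 30 and 20. Absolute depth is unknown, which limits what values under 1 FPKM can show.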
